A study of Mus musculus with 4 samples.

Results

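Gene-desert peaks of 5-hydroxymethylcytosine (5hmC) in cartilage cells were selected from the chondrocyte peak list by position and annotation. The autosomes 1 to 19 were divided into fixed bins of 500 kb. A bin was kept when it held 8 or more day 20 peaks of which at least 90% carried no gene symbol from the authors, and only its peaks without a symbol were members. This gave 174 bins and 2967 peaks, out of 2530 bins with 8 or more peaks and 56698 day 20 peaks in all. By this rule 6.88% of bins with 8 or more peaks were kept. Peak number and annotation chose the members, so neither is a finding here.

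The cells were ATDC5, a mouse chondrogenic line that grows as chondroprogenitors and becomes chondrocytes in medium with insulin, transferrin and selenite. Fragments of genomic DNA carrying 5hmC were captured chemically for 4 libraries, 2 of the chondroprogenitor stage at day 0 and 2 of the chondrocyte stage, at days 19 and 20. All came from this 1 line, with no change to its genes stated in the labels. The values used were 2 peak lists, 1 for each stage, made from merged libraries and filtered at 10-fold enrichment. They hold positions and symbols, so there is no replicate spread, no test between stages and no known read depth. Peak positions give no readout of marker genes, so the identity of the cells could not be checked.

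5hmC is the oxidised form of 5-methylcytosine. TET enzymes make it, mostly at CpG dinucleotides, and it is known as a mark of active genes and of distal enhancers. Genes that control development, among them Sox9, often lie beside long stretches without other genes that hold enhancers acting over large distances. CpG-rich promoters of active genes are usually free of 5-methylcytosine and so have little to oxidise.

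Promoter windows inside the bins are shown first, because they let the letters of windows with and without a peak be compared. RefSeq (GRCm38.p6) gives a window of 250 bases before to 50 bases after the start site for part of the genes in the bins, 131 windows of protein-coding and 600 of noncoding genes. The part before the start site is printed 5′ to 3′, with each CpG in capitals. The first group holds 3 protein-coding promoters with no day 20 peak over them, those of Klf4 (chr4:55532476-55532725, minus strand), Bmp4 (chr14:46390670-46390919, minus strand) and Cxcl12 (chr6:117168285-117168534, plus strand).
Klf4: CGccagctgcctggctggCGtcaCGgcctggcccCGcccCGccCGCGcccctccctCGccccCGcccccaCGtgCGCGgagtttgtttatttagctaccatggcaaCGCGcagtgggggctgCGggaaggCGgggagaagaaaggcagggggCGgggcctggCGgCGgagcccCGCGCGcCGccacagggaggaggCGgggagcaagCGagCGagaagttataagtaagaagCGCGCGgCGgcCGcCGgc
Bmp4: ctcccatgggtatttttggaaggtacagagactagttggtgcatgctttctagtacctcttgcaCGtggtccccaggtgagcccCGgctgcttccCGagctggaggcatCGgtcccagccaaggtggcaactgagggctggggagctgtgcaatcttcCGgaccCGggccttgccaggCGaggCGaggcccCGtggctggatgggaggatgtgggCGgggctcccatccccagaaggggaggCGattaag
Cxcl12: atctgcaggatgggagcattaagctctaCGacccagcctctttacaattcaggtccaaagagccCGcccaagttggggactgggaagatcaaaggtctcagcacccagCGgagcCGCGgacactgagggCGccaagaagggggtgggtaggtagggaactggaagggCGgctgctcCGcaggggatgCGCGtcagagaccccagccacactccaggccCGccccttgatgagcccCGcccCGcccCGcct

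The second group holds 4 windows that lay wholly under a gene-desert peak. They belong to the lncRNA genes Gm31037 (chr8:115856003-115856252, plus strand, in the bin that holds Maf), A430048G15Rik (chr2:133431847-133432096, plus strand, in the bin below Bmp2) and 2010109P13Rik (chr6:100147083-100147332, minus strand, in the bin that holds Rybp), and to a start site inside Ppargc1a (chr5:51567726-51567975, minus strand).
Gm31037: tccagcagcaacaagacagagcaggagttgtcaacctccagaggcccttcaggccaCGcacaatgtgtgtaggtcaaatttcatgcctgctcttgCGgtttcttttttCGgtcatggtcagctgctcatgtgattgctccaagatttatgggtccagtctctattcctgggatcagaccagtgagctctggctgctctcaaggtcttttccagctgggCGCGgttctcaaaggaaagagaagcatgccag
A430048G15Rik: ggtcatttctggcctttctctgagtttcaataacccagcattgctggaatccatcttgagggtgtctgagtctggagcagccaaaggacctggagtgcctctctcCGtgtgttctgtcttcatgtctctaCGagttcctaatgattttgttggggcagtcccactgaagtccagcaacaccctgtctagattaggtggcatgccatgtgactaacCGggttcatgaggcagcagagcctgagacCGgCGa
2010109P13Rik: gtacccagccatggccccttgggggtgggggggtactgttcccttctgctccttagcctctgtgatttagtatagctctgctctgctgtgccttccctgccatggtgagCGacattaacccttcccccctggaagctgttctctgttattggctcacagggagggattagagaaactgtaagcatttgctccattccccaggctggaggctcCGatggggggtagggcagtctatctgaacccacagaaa
Ppargc1a: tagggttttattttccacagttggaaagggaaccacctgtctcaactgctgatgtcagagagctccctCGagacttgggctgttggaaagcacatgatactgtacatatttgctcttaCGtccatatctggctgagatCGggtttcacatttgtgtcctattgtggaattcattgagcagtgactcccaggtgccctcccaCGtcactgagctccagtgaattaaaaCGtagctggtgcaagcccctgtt

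The printed stretches without a peak held 32 CpGs for Klf4, 11 for Bmp4 and 14 for Cxcl12. Those under a peak held 5, 5, 2 and 5, in the order printed. Apart from Ppargc1a the groups also differ in gene type, so this contrast is not one of overlap alone. The printed windows are chosen examples and do not stand for all windows. Over all noncoding windows in the bins the median was 4 CpGs under a peak and 3 without one. For protein-coding windows it was 12, from only 2 windows, against 18. The peak over Gm31037 spanned 897 bp, that over A430048G15Rik 683 bp, that over 2010109P13Rik 653 bp and that over the Ppargc1a start site 931 bp. The windows without a peak were not far from one. The nearest day 20 peak lay 0.126 kb from the Cxcl12 window, 1.69 kb from that of Klf4 and 5.74 kb from that of Bmp4.

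All windows in the bins were then counted. A day 20 peak overlapped 2 of 131 protein-coding windows (1.53%, Wilson 95% interval 0.420 to 5.4%) and 49 of 600 noncoding windows (8.17%, 6.23 to 10.6%). All 49 were windows of lncRNA genes, a count given here without the lncRNA share of the 600 windows. Over all autosomal windows of both gene types the share was 4.87%. In the other bins with 8 or more peaks it was 4.99% (4.65 to 5.36%) for protein-coding and 8.15% (7.57 to 8.77%) for noncoding windows. The noncoding share in gene-poor bins was thus that of other bins. Counted by peaks, 46 gene-desert peaks touched a promoter window (1.55%, 1.16 to 2.06%), against 2.49% of all autosomal day 20 peaks and 1.74% (1.57 to 1.94%) of the other peaks without a symbol, whose interval overlaps. The 2 protein-coding windows were the start site in Ppargc1a and that of the predicted gene Gm51582, which had 19 CpGs in 300 bases. Split by sequence, 2 of 143 windows with 10 or more CpGs were overlapped (1.4%, 0.384 to 4.96%), against 49 of 588 with fewer (8.33%, 6.36 to 10.8%). Over all autosomes these shares were 3.14% and 6.22%, so the same order was present outside the bins. In the bins this split largely followed gene type. Among noncoding windows, 1 of 50 with 10 or more CpGs was overlapped (2%, 0.354 to 10.5%), against 48 of 550 with fewer (8.73%, 6.65 to 11.4%). Among protein-coding windows it was 1 of 93 (1.08%, 0.19 to 5.84%) against 1 of 38 (2.63%, 0.466 to 13.5%). Within each gene type the intervals overlap. Intervals here and below cover counting error only, and neighbouring windows and peaks are not independent. Chromosome 18 and part of the genes of other chromosomes had no window in the table.

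**Figure D1:**
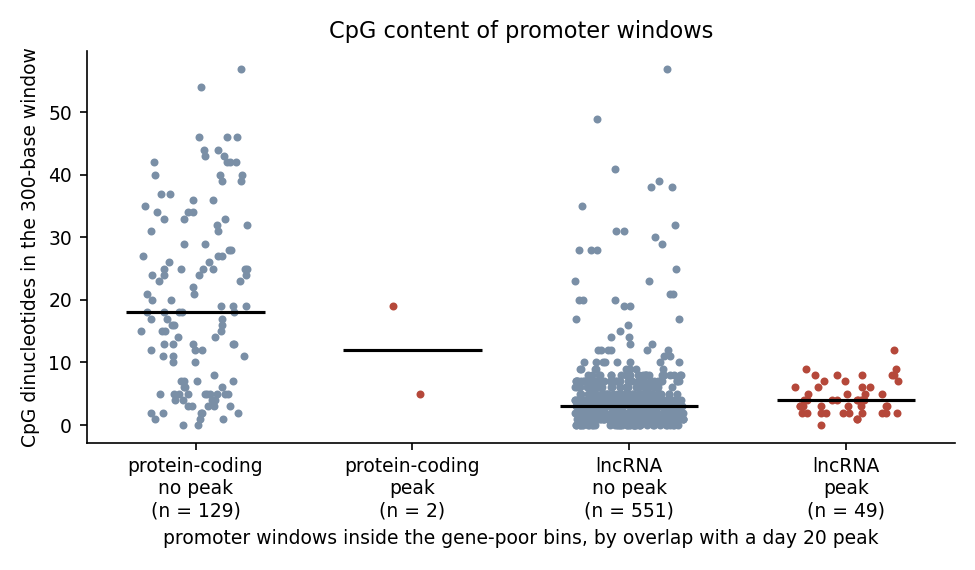
Number of CpG dinucleotides in each 300-base promoter window inside the gene-poor bins (y axis), by gene type and by overlap with a day 20 peak (x axis). Points are windows and lines are medians. Protein-coding windows without a peak have a median of 18 CpGs, and the 49 lncRNA windows under a peak have a median of 4. Noncoding windows without a peak have a median of 3, so within that gene type windows under a peak are not poorer in CpGs.

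The name gene desert fitted the peaks better than the bins. Only 77 of the 174 bins (44.3%, 37.1 to 51.7%) had no RefSeq protein-coding gene, against 3.6% of all bins with 8 or more peaks. The other 97 held at least 1, so all 174 are called gene-poor bins here. Protein-coding genes took up a median of 1.08% of a gene-poor bin, against 55.0% over all bins with 8 or more peaks. Of the 2967 peaks, 116 lay inside a protein-coding gene (3.91%, 3.27 to 4.67%), against 54.1% of all autosomal day 20 peaks. Members were chosen for having no symbol, and among the other peaks without one the share was 7.47% (7.11 to 7.85%). A further 538 (18.1%) lay in noncoding genes only, and 2313 (78.0%) lay outside every gene. For the other peaks without a symbol these shares were close, 17.1% and 75.5%.

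Most of the 116 peaks inside genes came from a few long genes whose peaks the authors left without a symbol. Ppargc1a held 29 of them in 662 kb, 44 day 20 peaks in all, of which the authors assigned 6 to it. Sox5, a partner of Sox9, held 12, the growth factor gene Nrg1 and the homeobox gene Zfhx3 11 each, and Dchs2, an atypical cadherin, 10. Why these peaks have no symbol was not tested. By RefSeq, 6 of the 174 bins lay mostly within protein-coding genes and are no deserts. Among them, the bins from 51.5 Mb on chromosome 5 and from 32 Mb on chromosome 8 lay whole within Ppargc1a and Nrg1. Adamtsl1 took up 97.2% of the bin from 85.5 Mb on chromosome 4. Another bin, from 122.5 Mb on chromosome 9, held 9 protein-coding genes, against a median of 5 over all bins with 8 or more peaks. For these bins the name gene-poor describes the rule and not the gene content.

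Gene-desert peaks were far from genes. The median distance from a peak's midpoint to the nearest protein-coding gene body was 166 kb (159 to 172 kb, interval of the median from the binomial distribution). It was 31.2 kb (30.5 to 32 kb) for the 19290 other autosomal peaks without a symbol that had a readable end. In the 77 gene-free bins the median was 298 kb, and in the 97 other bins 107 kb. Of the gene-desert peaks, 1077 lay 200 to 500 kb away (36.3%, 34.6 to 38.0%) and 180 at 500 kb or more (6.07%, 5.26 to 6.98%). The rule selects for distance, so these values describe the set.

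**Figure D2:**
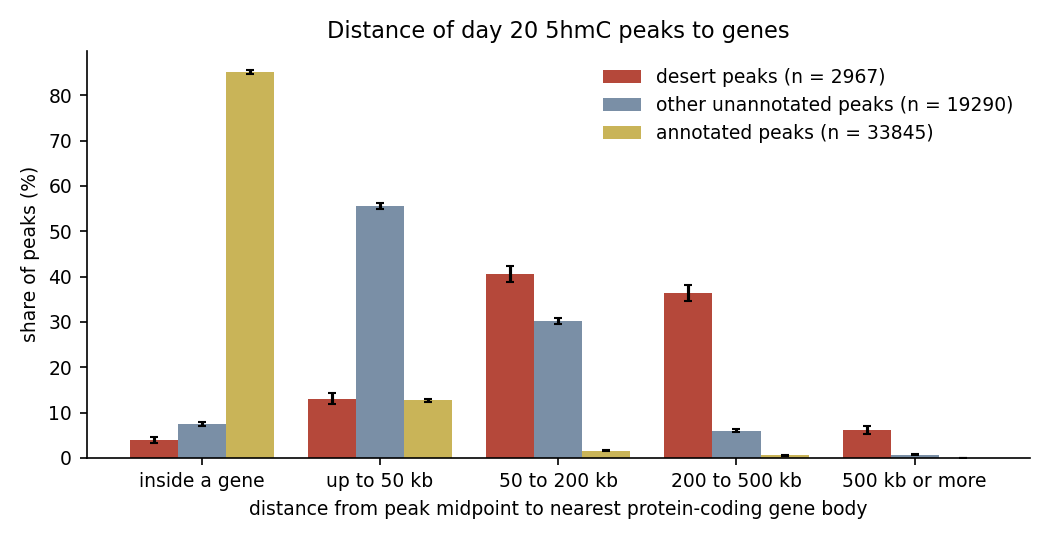
Share of peaks (y axis, %) by distance from the midpoint to the nearest protein-coding gene body (x axis) for gene-desert peaks, other unannotated peaks and annotated peaks of day 20. Bars are shares with Wilson 95% intervals. Gene-desert peaks are most frequent at 50 to 200 kb, with 40.6%, and annotated peaks inside genes, with 85.2%.

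The peaks were not the widest of the list. Their median width was 544 bp (535 to 553 bp, quartiles 423 and 698 bp, range 205 to 2674 bp). Other peaks without a symbol had a median of 584 bp (580 to 587 bp), and peaks with a symbol 602 bp (599 to 605 bp). Of the gene-desert peaks, 236 spanned 1 kb or more (7.95%), against 12.5% of all autosomal day 20 peaks.

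Width moved with peak number. In the 46 bins with 8 to 10 peaks the median width was 474 bp (448 to 492 bp), and in the 40 bins with 23 to 47 peaks it was 607 bp (595 to 626 bp). Peaks of 1 kb or more made up 2.64% in the first group and 14% in the second. Across the 174 bins the rank correlation of peak number with median width was 0.53, and across the 2356 other bins with 8 or more peaks it was -0.01. Both are descriptions, since all bins share the same merged libraries and peak caller threshold, and the other bins include annotated peaks.

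**Figure D3:**
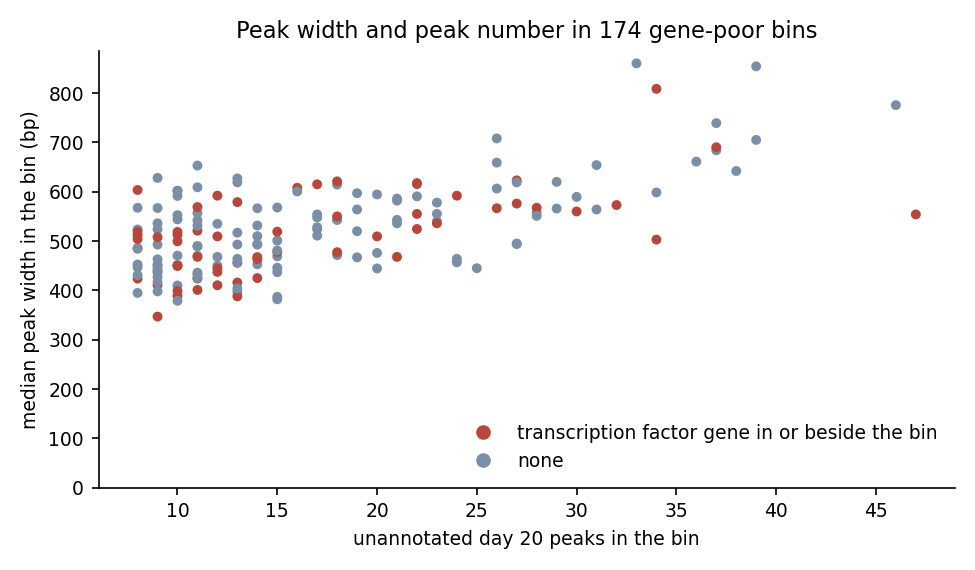
Median peak width in each gene-poor bin (y axis, bp) against its number of unannotated day 20 peaks (x axis). Each point is 1 of 174 bins, coloured by whether a transcription factor gene lies in or beside it. The bins with the widest peaks have over 30 peaks, while the bin with 47 peaks next to Sox9 has a median of 554 bp.

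The median gap between neighbouring gene-desert peaks was 13.5 kb (12.8 to 14.3 kb), against 11.9 kb (11.7 to 12 kb) in the other bins with 8 or more peaks. Gaps under 2 kb made up 11.6% and 10.4%. Together the 2967 peaks covered 1800 kb.

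Bins differed widely in peak number, from 8 to 47, with a median of 14. The 54 bins with 20 or more gene-desert peaks held 1510 of the 2967. The highest number, 47, was in the bin from 112 Mb on chromosome 11, with no protein-coding gene, between the predicted gene Gm11677 and Sox9, whose body began 282 kb above the bin. Sox9 is the master transcription factor of chondrogenesis. The adjoining bin from 111.5 Mb held 30 more, so 77 gene-desert peaks lay in 1 Mb below Sox9, 1 of them over a day 0 peak. Their widths ran from 213 to 1837 bp in the first bin and from 236 to 904 bp in the second.

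Next came 46 peaks on chromosome 8 from 126.5 Mb, around Irf2bp2, a transcriptional corepressor. They had a median width of 776 bp and included 3 of the 15 widest gene-desert peaks. On chromosome 13, 39 peaks filled the bin from 52 Mb between Gadd45g and Diras2, and 38 the bin from 44 Mb between Cd83 and Jarid2. On chromosome 6, 39 peaks surrounded Rybp, a Polycomb protein, from 100 Mb, and the adjoining bin from 99.5 Mb, which holds the end of Foxp1, had 34. The median widths of this pair, 854 and 809 bp, were among the 3 highest of all bins, together with 860 bp beside Tle3 on chromosome 9 from 61.5 Mb. Peaks in these 3 bins were therefore both dense and wide.

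Equal numbers, 37, were found in 3 bins. In the bin that holds Maf, a basic leucine zipper transcription factor, from 115.5 Mb on chromosome 8, the median width was 690 bp. Around the chemokine gene Cxcl12, from 117 Mb on chromosome 6, it was 684 bp. From 51 Mb on chromosome 6, in the bin with Nfe2l3 and Cbx3, it was 739 bp. The bin between Rps24 and Zmiz1 on chromosome 14, from 24.5 Mb, had 36 peaks and no protein-coding gene. The bin with Sp3, a zinc finger transcription factor, on chromosome 2 and the bin above Klf4 on chromosome 4 had 34 each.

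**Figure D4:**
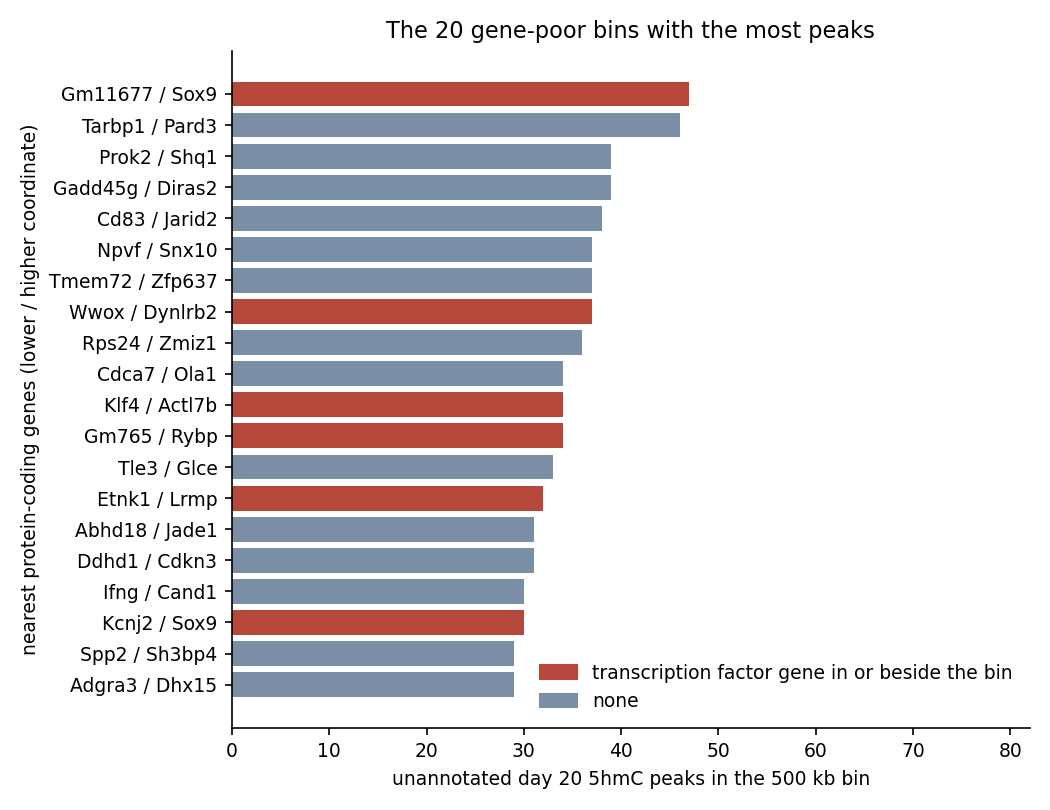
Number of unannotated day 20 peaks (x axis) in the 20 gene-poor bins with the most, labelled by the nearest protein-coding gene on the lower and higher side (y axis). Colour shows whether a gene of the transcription factor list, which does not include Sp3 in the bin between Cdca7 and Ola1, lies in or beside the bin. The bin below Sox9 leads with 47 peaks.

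Gene-poor bins lay next to each other in places. There were 18 runs of 2 or more adjacent bins, holding 40 of the 174. The longest had 4 bins with 48 peaks, from 69.5 to 71.5 Mb on chromosome 7, around the nuclear receptor gene Nr2f2. Runs of 3 lay between Ttll7 and Adgrl2 on chromosome 3, with 39 peaks, and around the homeobox gene Irx1 on chromosome 13, with 35. Pairs with more peaks than these runs were those below Sox9 (77), around Rybp and Foxp1 (73), around Maf (65) and around Klf4 (61). The pair between Myc and Gsdmc on chromosome 15 held 27, and a single bin below Myc held 9.

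Counted to the nearest protein-coding gene, the peaks fell to 292 genes, of which 123 received 10 or more. After Gm11677 with 54, the highest numbers were 42 for Maf, 38 each for Rybp and for Marcks, a substrate of protein kinase C, and 37 each for Klf4 and Cxcl12. Rps24 had 35, Bmp4 30 and Sox9 23. Transcription factor genes, 500 taken by symbol family in a list that misses some, such as Sp3, were nearest to 482 gene-desert peaks (16.2%, 15 to 17.6%), against 7.48% (7.11 to 7.86%) of the other peaks without a symbol. These 482 peaks share 42 genes, so the interval is too narrow. The nearest gene is a position and not a shown target.

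By bins, the nearest protein-coding gene on either side was a transcription factor in 40 of 174 (23.0%, 17.4 to 29.8%), against 10.6% of all bins with 8 or more peaks. With genes inside the bin included the count was 59, or 33.9% against 23.6%. The 40 bins were mostly gene-free ones, 27 of 77 (35.1%, 25.3 to 46.2%), while of the 97 bins with a gene 13 had such a neighbour (13.4%, 8 to 21.6%). The share was lower when neighbours were taken from the symbols in the authors' list, 28 of 174 or 16.1%, against 7.55% over all bins with 8 or more peaks. In bins with 12 or more peaks it was 16.8% (11.2 to 24.5%) against 10.5% (9.25 to 11.9%), and these intervals overlap.

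Gene-free bins without many peaks had other neighbours. Of the 851 autosomal bins with no protein-coding gene, 608 had no day 20 peak and 152 had 1 to 7. A transcription factor flanked 7.73% (5.86 to 10.1%) of the bins with none, 17.8% (12.5 to 24.6%) of those with 1 to 7 and 35.1% of the gene-poor bins among them. Within the last group it did not go up with peak number, at 40% (25.6 to 56.4%) of 35 bins with 8 to 13 peaks and 31% (19.1 to 46.0%) of 42 with 14 or more. Among gene-free bins the neuronal list, of 33 genes for synaptic adhesion, cadherins and axon guidance, ran the other way. It flanked 111 of the 760 bins with under 8 peaks (14.6%, 12.3 to 17.3%) and 1 of the 77 (1.30%, 0.230 to 7%), which was beside the glutamate receptor gene Gria2. Over all gene-poor bins it flanked 3 of 174 (1.72%, 0.588 to 4.95%), against 0.711% of all bins with 8 or more peaks. By peaks it was nearest to 8 gene-desert peaks (0.27%, 0.137 to 0.531%), against 0.0829% (0.0511 to 0.135%) of the other peaks without a symbol. Those 8 peaks share 2 genes. The low share thus holds only against other gene-free bins. Cdh8, Pcdh7 and Pcdh9 were beside 12 quiet bins each.

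Several bins can share 1 gene-free stretch, so stretches were also counted once. A stretch is the space between 2 neighbouring protein-coding genes that contains at least 1 whole bin. Of the 73 stretches with a gene-poor bin, 25 ended at a transcription factor gene (34.2%, 24.4 to 45.7%), against 36 of 316 with every bin under 8 peaks (11.4%, 8.34 to 15.4%). Neuronal genes ended 1 and 33 of them (1.37% and 10.4%). Stretches with many peaks were somewhat shorter, with a median of 1056 kb against 1262 kb. Among stretches under 2000 kb the shares for transcription factors were 34.8% and 12.8%, and for neuronal genes 1.45% and 7.41%. Whether mappability differs between these stretches was not measured.

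**Figure D5:**
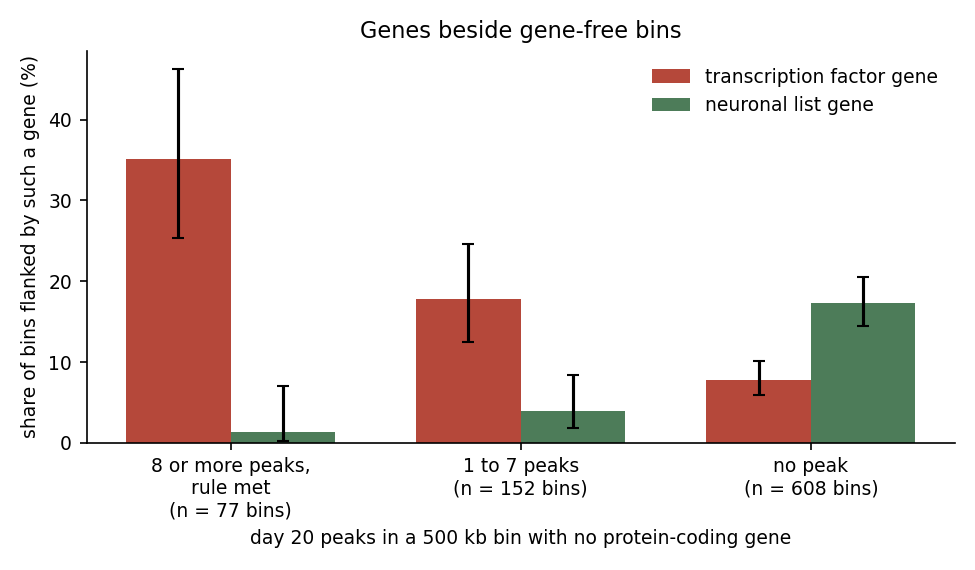
Share of 500 kb bins without a protein-coding gene (y axis, %) that have a transcription factor gene or a gene of the neuronal list as nearest protein-coding neighbour, by number of day 20 peaks in the bin (x axis). Bars are shares with Wilson 95% intervals. The share for transcription factors is 35.1% in gene-poor bins and 7.73% in bins without a peak, and that for neuronal genes is 1.30% in gene-poor bins.

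Skeletal regulators were among the neighbours. Of the 41 genes of the chondrogenic transcription factor list, 11 lay in or beside a gene-poor bin. All 41 lay in or beside some bin with 8 or more peaks. As a flank the listed genes met 10 gene-poor bins (5.75%, 3.15 to 10.3%), against 1.58% of all bins with 8 or more peaks. Some of these bins share a gene, as with Sox9, Osr1 and Zfp521. In or beside, the listed genes met 14 bins (8.05%, 4.85 to 13.1%), against 3.48% (2.83 to 4.27%). Among gene-free bins they flanked 5 of the 77 gene-poor ones (6.49%, 2.81 to 14.3%). With 1 to 7 peaks they flanked 7 of 152 (4.61%, 2.25 to 9.2%), and these intervals overlap. Besides the pair below Sox9, Osr1 of limb and joint mesenchyme bounded a bin of 18 peaks and a bin of 11 on chromosome 12. The bin of 18 lay between Matn3, a matrilin of cartilage matrix, and Osr1. Msx2, a homeobox factor of skull and limb, had 17 peaks in the bin above it, and Zfp521 had 11 and 9 in the bins on its sides. Nfib had 15 peaks in a bin 290.2 kb below it. Gli3, a hedgehog factor, was the lower neighbour of a bin of 9 that holds Inhba. Pax1 and Foxa2 on chromosome 2 enclosed a bin of 13. Inside bins lay Sox5 with 32 peaks in the bin, Sox6 with 16, Twist1 with 14 and Shox2 with 8.

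Cartilage matrix genes met 6 bins as a flank (3.45%, 1.59 to 7.32%), against 0.593% of all bins with 8 or more peaks. In or beside, the count was the same 6, against 1.5% (1.1 to 2.05%). By peaks the list was not more frequent. It was nearest to 10 gene-desert peaks (0.337%, 0.183 to 0.619%), against 0.29% (0.224 to 0.377%) of the other peaks without a symbol. Among gene-free bins it flanked 2 of the 77 gene-poor ones (2.6%, 0.715 to 8.98%). With 1 to 7 peaks it flanked 2 of 152 (1.32%, 0.362 to 4.67%), and these intervals overlap. Dcn, the proteoglycan decorin, was 479.5 kb from a bin of 21 peaks that holds Btg1. Adamts5, which cuts aggrecan, was the lower neighbour of bins of 8 and 14 on chromosome 16, at 98.9 and 1099 kb. The bin of 14 itself holds 5 protein-coding genes, and Adamts5 was nearest to 8 peaks in 1 bin. Has2, which makes hyaluronan, and Vcan, the proteoglycan versican, were each the neighbour of a bin of 9, at 166 and 257 kb. The bin above Vcan itself holds Xrcc4 and Tmem167. None of the core cartilage collagens or Acan was a neighbour, which says only that no gene-poor bin adjoins them.

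Genes of skeletal signalling met 6 bins as a flank (3.45%, 1.59 to 7.32%), against 1.98% of all bins with 8 or more peaks, and these intervals overlap. In or beside, they met 8 (4.60%, 2.35 to 8.81%), against 4.23% (3.51 to 5.09%). By peaks the list was more frequent. It was nearest to 79 gene-desert peaks (2.66%, 2.14 to 3.31%), against 1.46% (1.3 to 1.64%) of the other peaks without a symbol. These 79 peaks share 7 genes, so the interval is too narrow. Bmp2 had 15 peaks in a gene-free bin 52.2 kb below it, which also held the lncRNA A430048G15Rik printed above. Bmp4 lay inside a bin of 31. Fgfr2 was 162 kb above a bin of 28, and the WNT antagonist Sfrp2 266 kb above a bin of 17. Jag1, a Notch ligand, was 383 kb below a bin of 13, Igfbp3 285 kb below a bin of 12 and Fzd8 213 kb above a bin of 8. Lists of other cell types also had higher shares than in all bins with 8 or more peaks, on very few bins. Blood genes met 2 bins as flanks (1.15%, 0.316 to 4.09%), both through Ptprc, against 0.356%. Fat and muscle genes met 1 (0.575%, 0.102 to 3.18%), through Pax3, against 0.237%. In or beside, each of these lists met 2 bins (1.15%, 0.316 to 4.09%), against 0.87% and 0.791%. By peaks, fat and muscle genes were nearest to 36 (1.21%, 0.878 to 1.68%), against 0.238% of the other peaks without a symbol. Of these, 29 were nearest to Ppargc1a. Blood genes were nearest to 20 (0.674%), against 0.327%. Chondrogenic transcription factors were nearest to 107 (3.61%), against 1.39%.

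Few gene-desert peaks were present in the chondroprogenitor list, which holds 1050 peaks in all at the same stated enrichment. How far read depth sets this difference in number was not tested. Of the 2967, 32 shared 1 bp or more with a day 0 peak (1.08%, 0.765 to 1.52%), against 0.834% of all autosomal day 20 peaks. A single bin supplied 11 of the 32. It was the first of chromosome 9, from 3 Mb, where all 11 gene-desert peaks overlapped day 0 peaks. Within or reaching into that bin were 54 day 0 peaks, 1 of them starting below it, with a median width of 88 bp between 2999996 and 3038241, all below the first RefSeq gene of the chromosome at 3038669. It also held the widest gene-desert peak, of 2674 bp (chr9:3025231-3027904), over 8 day 0 peaks. Without this bin 21 of 2956 peaks overlapped (0.710%, 0.465 to 1.08%), close to the share for all autosomal peaks.

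The 21 other shared peaks lay in 18 bins, at most 3 in a bin. The bin that holds A530021J07Rik on chromosome 7, from 83 Mb, had 3, of 1114, 780 and 665 bp, and each covered 1 day 0 peak. The bin between Trib2, a pseudokinase gene, and Lpin1, of lipid synthesis, had 2, of 911 and 651 bp. Single shared peaks lay, among other places, in the Maf bin (chr8:115976854-115977634), below Sox9 (chr11:111879919-111880488) and in Ppargc1a (chr5:51591332-51592681). Others lay near Gadd45g and Diras2 (chr13:52373145-52374178) and in Gm44812 beside Nr2f2 (chr7:70568702-70569539). Shared peaks had a median width of 651 bp (522 to 838 bp) without the chromosome 9 bin, and unshared ones 543 bp (534 to 551 bp). These intervals overlap. A wider peak also meets an overlap of 1 bp more easily, so width is not read as a trait of shared peaks. Seen from day 0, the other gene-poor bins held 34 day 0 peaks, of which 21 overlapped a gene-desert peak (61.8%, 45.0 to 76.1%). Of 681 day 0 peaks in the other bins with 8 or more day 20 peaks, 394 overlapped a day 20 peak of any kind (57.9%, 54.1 to 61.5%), which lies within that interval.

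After the peak on chromosome 9, the widest gene-desert peaks lay in the dense bins. One of 2667 bp was 127 kb above Rybp (chr6:100414743-100417409). On chromosome 8, peaks of 2516 bp (chr8:126913000-126915515) and 2488 bp (chr8:126666774-126669261) lay between Irf2bp2 and Tomm20, a mitochondrial import receptor. A peak of 2334 bp lay in the lncRNA gene Gm32068 between Rps24 and Zmiz1 (chr14:24959835-24962168).

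At the edge of the rule, 13 bins had exactly 8 peaks and 16 had 7, all without any symbol, so the last 16 were just outside. Of the bins with 8 or more, 25 had 90 to under 91% of peaks without a symbol and 4 had 89 to under 90%. The nearest bin outside, from 103.5 Mb on chromosome 8, had 26 of 29. It adjoins a gene-poor bin of 24 peaks, in the stretch above Cdh11.

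The bins are given here by chromosome, apart from a few that are not reported, with the nearest symbol that the authors' list gave on each side, the start of the bin in Mb and, in parentheses, its gene-desert peaks. Symbols are those of the list, some of them older names such as Lphn2 for Adgrl2. They equalled the nearest RefSeq protein-coding gene at 158 of 348 flanks. The list names noncoding genes too, and names a gene only where a peak was assigned to it.

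Chromosome 1 held 14 bins, among them those between Ncoa2 and Eya1 at 13.5 Mb (13), between Arhgef4 and Hs6st1 at 35.5 Mb (13), between Col5a2 and Slc39a10 at 45.5 Mb (10) and between Icos and Pard3b at 61 Mb (14). Pax3 and Eya1 act in early muscle and organ development, and Ptprc is the leukocyte antigen CD45. Further along chromosome 1, bins lay between Epha4 and Pax3 at 77.5 Mb (9), between Spp2 and 1700067G17Rik at 88.5 Mb (29), between Dars and AA986860 at 128.5 Mb (11) and between Nr5a2 and Ptprc at 137 Mb (8). Chromosome 1 also had bins between Nr5a2 and Ptprc at 137.5 Mb (21), between Pappa2 and Tnr at 159 Mb (9), between Hhipl2 and Dusp10 at 183.5 Mb (19) and between Camk1g and Plxna2 at 193.5 Mb (11). Chromosome 2 held 11 bins, between Arhgap21 and Myo3a at 21 Mb (15), between Gm13476 and Acvr2a at 45.5 Mb (12), between Gm13483 and Rnd3 at 50.5 Mb (20) and between Rbms1 and Tank at 61 Mb (18). Hoxd1 is a gene of the HoxD homeobox cluster, Jag1 encodes a Notch ligand, and Pax1 is a factor of the sclerotome. Further along chromosome 2, bins lay between Cdca7 and Ola1 at 72.5 Mb (34), between Atp5g3 and Lnp at 74 Mb (17), between Hoxd1 and Hnrnpa3 at 75 Mb (21) and between Lrrn4 and Hao1 at 133 Mb (15). Chromosome 2 also had bins between Jag1 and Btbd3 at 137.5 Mb (13), between Pax1 and Sstr4 at 147.5 Mb (13) and between 4933416E03Rik and Top1 at 160 Mb (22). Chromosome 3 held 18 bins, between Gyg and Tbl1xr1 at 21.5 Mb (21), between Usp13 and Sox2ot at 34 Mb (10), between Sox2ot and Atp11b at 35 Mb (10) and between Fat4 and 1700017G19Rik at 39 Mb (15). Sox2ot is the long transcript that surrounds Sox2, Fat4 is an atypical cadherin, and Tbl1xr1 is a subunit of nuclear corepressor complexes. Further along chromosome 3, bins lay between Fat4 and 1700017G19Rik at 40 Mb (23), between Larp1b and Phf17 at 41 Mb (31), between Frem2 and Smad9 at 54 Mb (9) and between Veph1 and Rarres1 at 66.5 Mb (8). Chromosome 3 also had bins between Fam198b and Gria2 at 80 Mb (9), between Pdgfc and Mtap9 at 81.5 Mb (9), between Mtap9 and 1700028M03Rik at 83 Mb (17) and between Fbxw7 and Pet112l at 85 Mb (17). Higher on chromosome 3, bins lay between Pkn2 and Gm6260 at 143 Mb (9), between A830019L24Rik and Lmo4 at 143.5 Mb (18), between Prkacb and Lphn2 at 147 Mb (19) and between Prkacb and Lphn2 at 147.5 Mb (11). Last on chromosome 3, bins lay between Prkacb and Lphn2 at 148 Mb (9) and between Lphn2 and Eltd1 at 149 Mb (11).

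Chromosome 4 held 11 bins, between Gm11818 and Runx1t1 at 13 Mb (13), between 1810074P20Rik and Bach2 at 31.5 Mb (9), between Rngtt and Akirin2 at 33.5 Mb (13) and between Cnr1 and Akirin2 at 34 Mb (13). Klf4 is a zinc finger transcription factor, and Tgfbr1 encodes a receptor of TGF-beta. Further along chromosome 4, bins lay between Tgfbr1 and Stx17 at 47.5 Mb (22), between Gm12505 and Ctnnal1 at 55.5 Mb (27), between Klf4 and Ctnnal1 at 56 Mb (34) and between Mpdz and Gm5860 at 81.5 Mb (15). Chromosome 4 also had bins between Sh3gl2 and Adamtsl1 at 85.5 Mb (8), between Cdkn2b and Fggy at 95 Mb (22) and between Ppap2b and Usp24 at 105.5 Mb (21). Chromosome 5 held 3 bins, between Akap9 and Fzd1 at 4 Mb (20), between Ppargc1a and Dhx15 at 51.5 Mb (29) and between Agpat9 and Nkx6-1 at 101 Mb (27). Ppargc1a is a coactivator of mitochondrial genes, and Fzd1 encodes a WNT receptor. Chromosome 6 held 9 bins, among them those between Ccdc132 and Col1a2 at 4 Mb (13), between D330028D13Rik and Mpp6 at 49.5 Mb (23), between C530044C16Rik and Snx10 at 51 Mb (37) and between 4930544G11Rik and Gng12 at 66 Mb (15). Col1a2 encodes a chain of type I collagen. Further along chromosome 6, bins lay between Foxp1 and Rybp at 99.5 Mb (34), between Eif4e3 and 1700049E22Rik at 100 Mb (39), between Tmem72 and 1700030F04Rik at 117 Mb (37) and between Sox5 and Bcat1 at 144.5 Mb (32). Chromosome 7 held 8 bins, between 4930402F11Rik and B130024G19Rik at 69.5 Mb (8), between 4930402F11Rik and Mctp2 at 70 Mb (12), between B130024G19Rik and Mctp2 at 70.5 Mb (20) and between B130024G19Rik and Mctp2 at 71 Mb (8). Fgfr2 is a receptor for fibroblast growth factors, and Sox6 is a partner of Sox9 in cartilage. Further along chromosome 7, bins lay between Mctp2 and A730056A06Rik at 72.5 Mb (14), between 4933430H16Rik and Il16 at 83 Mb (26), between Insc and Sox6 at 115 Mb (16) and between Inpp5f and Fgfr2 at 129.5 Mb (28).

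Chromosome 8 held 12 bins, between Lass4 and Efnb2 at 8 Mb (19), between Arhgef7 and Spaca7 at 12 Mb (15), between Hook3 and Erlin2 at 26.5 Mb (26) and between Nrg1 and Gm3985 at 32 Mb (11). Efnb2 is an ephrin ligand, and Zfhx3 and Wwox are large genes, of a homeobox factor and of an oxidoreductase. Further along chromosome 8, bins lay between Gab1 and Inpp4b at 81 Mb (9), between Phkb and Abcc12 at 86 Mb (19), between Got2 and 4933400L20Rik at 103 Mb (24) and between Psmd7 and Mir466g at 108 Mb (24). Chromosome 8 also had bins between Zfhx3 and Pmfbp1 at 109 Mb (11), between Wwox and Dynlrb2 at 115.5 Mb (37), between Wwox and Dynlrb2 at 116 Mb (28) and between Gm17296 and Pard3 at 126.5 Mb (46). Chromosome 9 held 15 bins, before Casp12 at 3 Mb (11), between Ntm and Adamts15 at 30 Mb (8), between Ets1 and Kirrel3 at 33 Mb (12) and between Ets1 and Kirrel3 at 34 Mb (10). Ets1 and Rora are transcription factors, and Tle3 is a corepressor of the Groucho family. Further along chromosome 9, bins lay between Apoa5 and Cadm1 at 47 Mb (18), between Ncam1 and 1600029D21Rik at 50 Mb (20), between Tle3 and Paqr5 at 61.5 Mb (33) and between Vps13c and Rora at 68 Mb (10). Chromosome 9 also had bins between Cd109 and Gm10635 at 79 Mb (15), between 4930554C24Rik and Tpbg at 85 Mb (14), between Fam46a and Ube2cbp at 85.5 Mb (15) and between Mrap2 and Nt5e at 87.5 Mb (23). Higher on chromosome 9, bins lay between 4933400C23 and 1190002N15Rik at 94 Mb (13), between 2900079G21Rik and AU023762 at 113 Mb (14) and between A730085K08Rik and Zdhhc3 at 122.5 Mb (10). Chromosome 10 held 10 bins, between Frk and Lama4 at 37 Mb (27), between Marcks and Lama4 at 37.5 Mb (15), between Prdm1 and Prep at 44.5 Mb (22) and between D630037F22Rik and Pkib at 56.5 Mb (25). Prdm1 encodes the repressor Blimp-1, Marcks is a substrate of protein kinase C, and Btg1 restrains proliferation. Further along chromosome 10, bins lay between 1700023F02Rik and Reep3 at 66.5 Mb (27), between Tmpo and Rmst at 91.5 Mb (10), between Eea1 and Btg1 at 96 Mb (23) and between Eea1 and 4930556N09Rik at 96.5 Mb (21). Chromosome 10 also had bins between Ifng and 1700064J06Rik at 118.5 Mb (30) and between Lrig3 and Ctdsp2 at 126 Mb (11).

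Chromosome 11 held 9 bins, between Igfbp3 and Tns3 at 7.5 Mb (12), between Ppp3r1 and Meis1 at 17.5 Mb (9), between Ppp3r1 and Meis1 at 18 Mb (10) and between Adra1b and Rnf145 at 44 Mb (18). Igfbp3 binds insulin-like growth factors, Meis1 is a homeobox cofactor of Hox proteins, and Ebf1 is a factor of B cells and stromal cells. Further along chromosome 11, a bin lay between Ebf1 and F630206G17Rik at 45 Mb (18), between 9530068E07Rik and Fstl4 at 52.5 Mb (11), between Map2k6 and Kcnj16 at 110.5 Mb (27) and between Kcnj2 and BC006965 at 111.5 Mb (30). Chromosome 11 also had a bin between Kcnj2 and BC006965 at 112 Mb (47). Chromosome 12 held 10 bins, between Wdr35 and 1700022H16Rik at 9 Mb (18), between 1700022H16Rik and Kcns3 at 10 Mb (11), between Nbas and Lpin1 at 15.5 Mb (11) and between Nbas and Lpin1 at 16 Mb (15). Hdac9 is a class IIa histone deacetylase, and Ahr is the aryl hydrocarbon receptor. Further along chromosome 12, bins lay between Gm17746 and Rnf144a at 25.5 Mb (11), between Prkar2b and Cdhr3 at 32.5 Mb (10), between Atxn7l1 and Hdac9 at 33.5 Mb (14) and between Hdac9 and Ahr at 35 Mb (8). Chromosome 12 also had bins between Max and Fam71d at 77 Mb (10) and between Vrk1 and Bcl11b at 106.5 Mb (9). Chromosome 13 held 18 bins, between Net1 and Pfkp at 5.5 Mb (13), between 1700016G22Rik and Pfkp at 6 Mb (12), between 4933412O06Rik and 5033411D12Rik at 16 Mb (9) and between Hus1b and 1700018A04Rik at 31 Mb (26). Gadd45g belongs to a family of stress-induced proteins, and Jarid2 is a partner of the Polycomb repressive complex PRC2. Further along chromosome 13, bins lay between 1700026J04Rik and Cdyl at 35 Mb (10), between Slc35b3 and Tfap2a at 39 Mb (12), between Cd83 and Jarid2 at 44 Mb (38) and between Atxn1 and Cap2 at 46 Mb (17). Chromosome 13 also had bins between Rnf144b and Id4 at 47.5 Mb (10), between Gadd45g and Diras2 at 52 Mb (39), between Gm2762 and Drd1a at 53.5 Mb (17) and between Adamts16 and Gm20554 at 71 Mb (14). Higher on chromosome 13, bins lay between Adamts16 and Gm20554 at 71.5 Mb (11), between Adamts16 and Gm20554 at 72 Mb (10), between Xrcc4 and Atp6ap1l at 90 Mb (9) and between Pik3r1 and Cd180 at 102 Mb (24). Last on chromosome 13, bins lay between Ipo11 and Zswim6 at 107 Mb (26) and between Gapt and 3110015C05Rik at 110.5 Mb (28).

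Chromosome 14 held 3 bins, between Rarb and Thrb at 17 Mb (8), between Rps24 and 4930572O13Rik at 24.5 Mb (36) and between Ddhd1 and Rubie at 46 Mb (31). Rarb and Thrb are nuclear receptors. Chromosome 15 held 6 bins, between AU022793 and Zfpm2 at 40 Mb (10), between Sntb1 and Has2 at 56 Mb (9), between Trib1 and D030024E09Rik at 61 Mb (9) and between Pvt1 and LOC432958 at 62.5 Mb (14). Has2 makes hyaluronan, Pvt1 is the long noncoding gene beside Myc, and Zfpm2 is a cofactor of GATA factors. Further along chromosome 15, bins lay between Pvt1 and Fam49b at 63 Mb (13) and between Gm628 and Bai1 at 74 Mb (11). Chromosome 16 held 6 bins, between 1810013L24Rik and Grin2a at 9 Mb (16), between Efcab1 and Mzt2 at 15 Mb (14), between Nrip1 and Usp25 at 76.5 Mb (8) and between 2810055G20Rik and Cxadr at 77.5 Mb (10). Adamts5 is a protease that cuts aggrecan, and Nrip1 is a corepressor of nuclear receptors. Further along chromosome 16, bins lay between Adamts5 and ORF63 at 86 Mb (8) and between Adamts5 and ORF63 at 87 Mb (14). Chromosome 17 held 4 bins, between 1700102H20Rik and Arid1b at 4.5 Mb (22), between Pde10a and Pabpc6 at 9 Mb (10), between Arhgap28 and L3mbtl4 at 68 Mb (12) and between 1700106N22Rik and Srbd1 at 85.5 Mb (18). Arid1b is a subunit of the BAF chromatin remodelling complex. Chromosome 18 held 6 bins, between Wac and Fzd8 at 8.5 Mb (8), between Osbpl1a and Zfp521 at 13 Mb (11), between Zfp521 and Ss18 at 14 Mb (9) and between Nr3c1 and Prelid2 at 39.5 Mb (12). Zfp521 is a zinc finger regulator of skeletal cells, Fzd8 a WNT receptor, and Nr3c1 the glucocorticoid receptor. Further along chromosome 18, bins lay between Zfp608 and Gramd3 at 55 Mb (17) and between Sall3 and Mbp at 81.5 Mb (8). Chromosome 19 held 1 bin, between Adra2a and Gpam at 54.5 Mb (13). Adra2a is an adrenergic receptor and Gpam an enzyme of glycerolipid synthesis.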

How the data were processed

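5hmC-enriched DNA of ATDC5 cells was sequenced in 4 libraries. The authors deposited 1 peak list for each stage, made from merged samples and filtered at 10-fold enrichment, per the file headers. The headers do not state what the enrichment is relative to or whether the day 19 library entered the chondrocyte list. The submitters' processing notes name FastQC, cutadapt, BWA, MACS 1.4.2 and the GRCm38 (mm10) build. The deposited values used are peak start and end positions and gene symbols. Read counts, peak heights and depth were not used here, so precision between replicates is unknown.

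Peaks were assigned to 500 kb bins by their start, and day 0 peaks were counted in a gene-poor bin they reached into. 3 day 20 rows had no readable end, 0 of them a member. Gene bodies, biotypes and promoter windows came from RefSeq GRCm38.p6. Widths, distances from peak midpoints, overlaps of at least 1 bp and shares with Wilson 95% intervals were computed in Python 3.11.15 with pandas 2.3.3 and scipy 1.17.1. The steps were tested on simulated data. No test between samples was possible. A few bins are not reported here by their neighbours, though they are included in all counts.

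The members, gene lists and comparisons were chosen with earlier results of these data known. Bins described singly were taken from those with the most peaks, a day 0 overlap, an adjacent gene-poor bin or a skeletal gene as neighbour. Single peaks were the 5 widest and part of those shared with day 0. Alternatives changed the grid, the thresholds, the merging of peaks, the overlap and the annotation.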

Additional observations from a re-analysis of the deposited data

How the results depend on the processing

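Of 62 alternative values for 9 results, 40 stayed within the interval of the value reported, or for counts within 1.5 times, and 22 moved. Shifting the grid by 250 kb moved the median distance to a protein-coding gene to 179 kb. With at least 80% of peaks without a symbol there were 290 bins and 4995 peaks, with a median width of 558 bp, 30% of bins gene-free and a median distance of 133 kb. With 100% there were 106 bins and 1638 peaks, with a median width of 518 bp, 61.3% of bins gene-free, 80.04% of peaks outside every gene, a median distance of 219 kb, 30.2% of bins beside a transcription factor gene and a median gap of 15.4 kb. With at least 12 peaks per bin the median width was 558 bp, the share beside a transcription factor gene 16.8% and the median gap 12.1 kb. Counting genes of any type left 1.15% of bins gene-free and a median distance of 19.1 kb, and counting protein-coding genes only put 96.1% of peaks outside genes. With the authors' symbols 16.1% of bins were beside a transcription factor gene. Without the first bin of chromosome 9, an alternative chosen after seeing the data, 0.710% of peaks overlapped day 0. Apart from these changes of definition the cause was not tested. No paired analysis was possible because each stage has 1 merged list with no values per library, and for the same reason no library could be left out.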

Other observations

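Gene-desert peaks in noncoding genes only made up 18.1%, close to the 17.1% of other peaks without a symbol. Of 271 noncoding genes that held at least 1, 262 were lncRNA genes. The lncRNA share among all noncoding genes was not set beside this count, so it is not read as a trait of the peaks. Gm31718, between Irf2bp2 and Tomm20, held 12 in 104 kb, Gm46948 on chromosome 6 held 9, and D030068K23Rik and Gm39857 held 8 each. The gene-poor bins also contained 12 miRNA hairpins of the RefSeq table. Mir466k was 1.78 kb from the nearest gene-desert peak and Mir148a 4.44 kb, in the bin with Nfe2l3 and Cbx3. Mir99a and Mirlet7c-1 on chromosome 16 were 25.5 and 26.2 kb away.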
